A study of Mus musculus with 8 samples.

Results

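Axon guidance ligand and receptor genes were taken as the RefSeq protein-coding genes of the semaphorin (Sema3 to Sema7), plexin (Plxn), ephrin (Efn), Eph, Slit, Robo, netrin (Ntn), netrin-G (Ntng), Unc5 and Dcc families, matched by gene symbol. The rule found 69 of 21883 protein-coding genes, 37 for ligands (Sema, Efn, Slit, Ntn and Ntng) and 32 for receptors (Plxn, Eph, Robo, Unc5 and Dcc). They were read against H2AK119ub, histone H2A with a single ubiquitin that Polycomb repressive complex 1 attaches, in progenitor cells of the epidermis. The mark was mapped by ChIP-seq, in which chromatin carrying it is pulled down with an antibody and its DNA sequenced. The cells came from back skin at postnatal day 0 and were selected by sorting on surface EpCAM and Sca1 together with high α6-integrin. The groups used here were control (2 H2AK119ub libraries) and Eed cKO (2 H2AK119ub libraries, genotype given as Eed-/-), a conditional knockout of a core subunit of Polycomb repressive complex 2, which methylates H3K27. The labels name neither the driver of the deletion, nor the alleles that the control mice carry, nor the animals behind each library. Each genotype had 1 peak list, so no value below has a replicate error and no p-value is given. Genes are not replicates of a condition.

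These families carry the short-range and long-range cues that steer growing axons, and epithelia use the same proteins in adhesion, cell sorting and contact with nerves and vessels. Semaphorins bind plexins, some of them together with neuropilins. Ephrins on one cell bind Eph kinases on the next and can signal in both directions, so the split into ligands and receptors is by the main role. Slits bind Robo receptors, and netrins bind Dcc, which mostly attracts, and Unc5 receptors, which mostly repel. Netrin-Gs are membrane-anchored relatives of netrins that bind Lrrc4 family proteins at synapses.

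The control list held 4621 peaks and the Eed cKO list 2541, as positions without score or height. Read depth behind either list is unknown, and genotype, depth and calling threshold cannot be told apart as sources of the difference in number. A gene was called marked when a peak lay within 2000 bp of either end of its span. Genes that define basal keratinocytes (Krt5, Krt14 and Trp63 among 8 checked) had no peak in either list, and Eed had none. Over all protein-coding genes, control marked 11.7% and Eed cKO 7.40%, so an absence at 8 genes says little. Among markers of other cells that the sort could hold, control marked 1 of 5 for melanocytes (Sox10), 1 of 4 for fibroblasts (Pdgfra) and 0 of 4 for leukocytes. Eed cKO marked none of these. Peaks of a histone mark do not measure expression, so these values do not show which cells were present.

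In control, 23 of the 69 axon guidance genes were marked (33.3%, 95% Wilson interval 23.4 to 45.1), against 11.7% of all protein-coding genes. In Eed cKO the count was again 23 (33.3%), against 7.40% of all protein-coding genes. The marked share of the families was thus above that of all genes in both lists. It was equal in the 2 lists, while the share of all genes was lower in Eed cKO. The genes were not all the same ones. Both lists marked 15 members (21.7%, against 5.71% of all genes), among them Ntn1, Sema7a, Epha8, Robo3 and Unc5b. Control alone marked 8 (11.6%, against 5.95%), among them Efna2, Plxnc1 and Unc5c. Eed cKO alone marked 8 (11.6%, against 1.70%), among them Efna1, Efna4, Plxna1 and Unc5a. The other 38 members had no peak at either end in either list.

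Of the 23 control-marked members, 15 were also marked in Eed cKO (65.2%, 44.9 to 81.2). The share over all control-marked genes was 49.0%, inside that interval. Of the 23 members marked in Eed cKO, 15 were also marked in control (65.2%), against 77.1% of all genes marked in Eed cKO, which also lay inside the interval. The intervals cover counting error over genes only.

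Ligand and receptor genes were marked to nearly the same extent. Control peaks lay at 12 of 37 ligand genes (32.4%, 19.6 to 48.5) and at 11 of 32 receptor genes (34.4%, 20.4 to 51.7), a difference of 1.94 percentage points. The counts in Eed cKO were the same, 12 ligand and 11 receptor genes. Both lists marked 8 ligand genes and 7 receptor genes, or 66.7% (39.1 to 86.2) and 63.6% (35.4 to 84.8) of those marked in control. The receptor and ligand intervals overlapped almost fully in each case. With these numbers of genes a difference in share of many percentage points would not be visible.

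**Figure D1:**
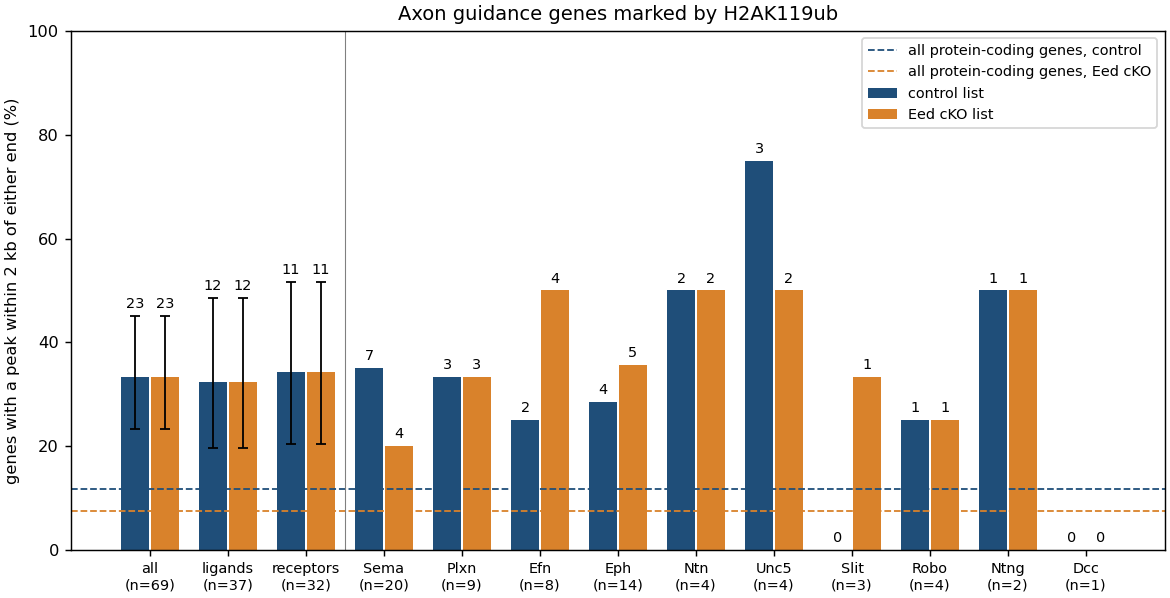
Share of axon guidance genes with an H2AK119ub peak within 2000 bp of either gene end (y axis, percent), for all 69 genes, by role and by family (x axis, n = genes), in the control list (blue) and the Eed cKO list (orange). Numbers above the bars are marked genes, error bars are 95% Wilson intervals (left 3 groups only) and dashed lines are the shares of all protein-coding genes, 11.7% and 7.40%. All, ligand and receptor bars stand at 32.4% to 34.4% in both lists, and families differ, with Sema at 7 and 4 and Efn at 2 and 4 marked genes.

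Counts by family were small and had no test. Of 20 semaphorin genes, control marked 7 and Eed cKO 4, and all 4 of the latter were among the 7. Of 8 ephrin genes, control marked 2 and Eed cKO 4, of which 1 was shared. Eph genes were marked in 4 and 5 of 14 cases, plexin genes in 3 and 3 of 9, and Unc5 genes in 3 and 2 of 4. Netrin genes were marked in 2 of 4 cases in both lists, Robo genes in 1 of 4, and netrin-G genes in 1 of 2. Of 3 Slit genes, control marked 0, for which the Wilson interval reaches 56.1%, and Eed cKO marked 1. Dcc, the netrin receptor of commissural axons, had no peak, and neither had the 3 members on the X chromosome (Efnb1, Plxna3 and Plxnb3). Over autosomes alone, the marked share of all protein-coding genes was 12.2% for control, against 11.7% with X and Y. For Eed cKO it was 7.81%, against 7.40%. Peaks were thus rarer at genes of X and Y, and the absence at 3 members is not read as particular to them.

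Promoters of the members were rich in CpG, the dinucleotide at which Polycomb proteins commonly collect in mammals. RefSeq promoter sequences (GRCm38.p6, the assembly also called mm10, 250 bases before and 50 after the outermost listed start) matched 59 of the 69 members. Those of 6 members are shown, to set marked and unmarked promoters side by side. Among genes with an entry, they are the ligand and the receptor with the widest control peak among those marked in both lists (Sema6b, Epha8) and in control alone (Efna2, Plxnc1), and the unmarked ligand and receptor richest in CpG (Sema3c, Plxnb1). Each is the 250 bases before the listed start, 5′ to 3′ on the gene's strand, with every CG in capitals.
Sema6b: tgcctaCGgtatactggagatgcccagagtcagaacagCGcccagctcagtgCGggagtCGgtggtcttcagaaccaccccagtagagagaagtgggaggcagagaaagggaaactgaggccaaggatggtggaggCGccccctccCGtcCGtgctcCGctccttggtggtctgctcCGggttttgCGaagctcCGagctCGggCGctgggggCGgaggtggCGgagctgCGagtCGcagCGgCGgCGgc
Epha8: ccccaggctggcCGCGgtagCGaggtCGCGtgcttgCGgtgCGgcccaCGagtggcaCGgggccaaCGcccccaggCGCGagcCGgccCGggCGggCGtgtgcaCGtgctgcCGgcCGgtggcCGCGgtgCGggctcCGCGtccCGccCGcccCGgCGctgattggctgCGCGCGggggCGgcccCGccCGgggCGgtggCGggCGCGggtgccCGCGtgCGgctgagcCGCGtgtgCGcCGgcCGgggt
Efna2: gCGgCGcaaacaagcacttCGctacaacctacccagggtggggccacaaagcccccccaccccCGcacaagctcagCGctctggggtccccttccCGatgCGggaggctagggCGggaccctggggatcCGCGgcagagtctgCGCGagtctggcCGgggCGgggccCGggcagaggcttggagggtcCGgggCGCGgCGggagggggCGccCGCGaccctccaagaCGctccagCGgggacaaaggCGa
Plxnc1: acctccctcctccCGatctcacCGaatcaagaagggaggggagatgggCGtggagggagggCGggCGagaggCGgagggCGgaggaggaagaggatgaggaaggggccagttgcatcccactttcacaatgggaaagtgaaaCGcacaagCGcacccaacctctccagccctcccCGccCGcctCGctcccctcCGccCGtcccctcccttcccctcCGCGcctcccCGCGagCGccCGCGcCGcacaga
Sema3c: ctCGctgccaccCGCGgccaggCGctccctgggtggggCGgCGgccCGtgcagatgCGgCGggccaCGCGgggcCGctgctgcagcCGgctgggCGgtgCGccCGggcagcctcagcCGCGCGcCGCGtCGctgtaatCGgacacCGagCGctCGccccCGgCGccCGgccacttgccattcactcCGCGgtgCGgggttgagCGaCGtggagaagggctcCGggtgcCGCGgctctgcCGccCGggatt
Plxnb1: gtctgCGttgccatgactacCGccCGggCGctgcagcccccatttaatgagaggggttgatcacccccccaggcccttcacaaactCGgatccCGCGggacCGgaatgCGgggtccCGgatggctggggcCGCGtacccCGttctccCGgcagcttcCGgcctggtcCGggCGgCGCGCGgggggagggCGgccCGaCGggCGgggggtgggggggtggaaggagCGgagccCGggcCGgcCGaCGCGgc
They lie at chr17:56140344-56140593 (minus strand), chr4:136956817-136957066 (minus), chr10:80179232-80179481 (plus), chr10:94944846-94945095 (minus), chr5:17574566-17574815 (plus) and chr9:109095186-109095435 (plus), in that order. The Epha8 stretch held 46 CG dinucleotides, and 0.389% of all 17491 protein-coding promoters held as many or more. Sema6b had 20, Efna2 25 and Plxnc1 22, against a median of 10 over all promoters. Unmarked Sema3c and Plxnb1 had 39 and 30, more than 3 of the 4 marked genes shown. The unmarked genes were picked as the richest in CpG and the marked ones by peak width. This order may thus come from the choice alone, and it does not compare marked with unmarked genes in general. CG is its own reverse complement, and 92.6% of all promoters held at least 1.

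Over the full 300 bases, the 59 members had a median of 22 CpG, against 13 over all protein-coding genes. The 23 marked members with a promoter had a median of 23 and the 36 unmarked ones 17.5. A promoter was called CpG-dense when its GC content was above 50% and its observed to expected CpG ratio above 0.6. CpG-dense promoters were found at 19 of the 23 marked members (82.6%), 19 of the 36 unmarked members (52.8%) and 45.5% of all genes. Genome-wide, 43.3% of unmarked genes had such a promoter, and their median was 12 CpG. The share was 59.1% where only control had a peak, 61.1% where only Eed cKO did and 62.7% where each list did. Median CpG was 20 in each of these classes. The contrast between marked and unmarked genes is thus not read as particular to the members. Among members with CpG-dense promoters, control marked 16 of 38 (42.1%) and Eed cKO 13 of 38 (34.2%), against 14.4% and 9.52% of all genes with such promoters. Among the 21 members without one, control marked 2 (9.52%) and Eed cKO 4, against 7.76% and 4.80%. The higher marked share of the families thus stood beside a higher share of CpG-dense promoters, and it was also present within that class. In Eed cKO it was present outside that class too, though over 4 genes only. Ntng2 (6 CpG) and Ntn3 (16 CpG) were the marked members in control without a CpG-dense promoter. Eed cKO marked both of these, Efna4 (11 CpG) and Ephb4 (14 CpG).

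**Figure D2:**
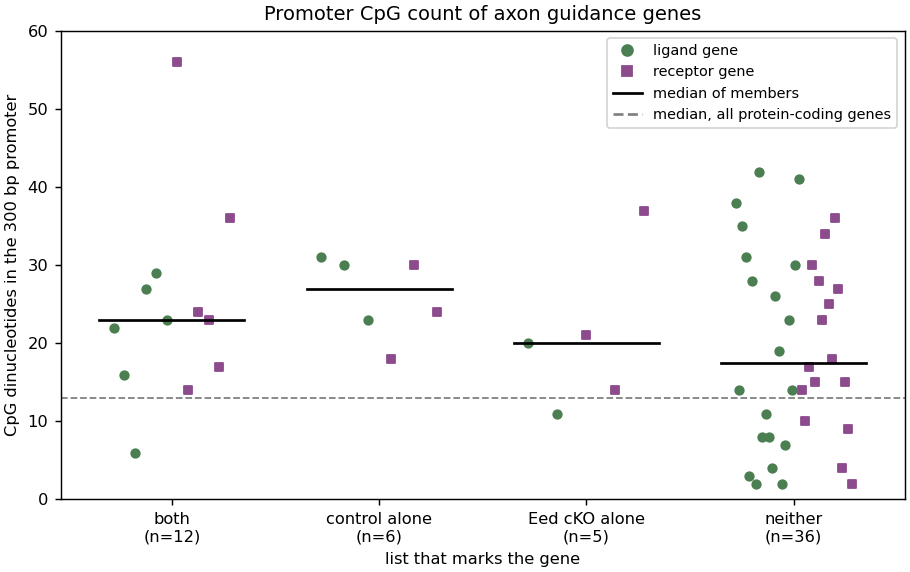
CpG dinucleotides in the 300 bp RefSeq promoter (y axis) of the 59 axon guidance genes with a promoter entry, by the list that marks the gene (x axis). Circles are ligand genes, squares receptor genes, black lines group medians (23, 27, 20 and 17.5) and the dashed line the median of all protein-coding genes, 13. The groups overlap, with unmarked genes from 2 to 42.

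Netrin genes included the widest peak of any member. Ntn1, which encodes the secreted cue netrin-1, lay at a 26.1 kb control peak on chromosome 11 (68376898 to 68403006) across the higher-coordinate end of the gene (68209364 to 68386826). A 14.8 kb Eed cKO peak (68381879 to 68396691) lay wholly inside it and covered 56.7% of it. Ntn3, a second netrin, was marked over its whole 5.56 kb span, by a control peak of 11.5 kb and an Eed cKO peak of 10.8 kb that it shared with Tbc1d24 and Tedc2. Its mark cannot be assigned to 1 of these genes. Ntn4 and Ntn5 were not marked in either list.

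Netrin receptors of the Unc5 family were all marked, but in different lists. Unc5b, a repulsive netrin receptor also known from vessel guidance, had control peaks of 5.59 and 3.47 kb on either side of its 5′ end on chromosome 10 (60825391 to 60830980 and 60832762 to 60836227). In Eed cKO a single 11.1 kb peak (60825227 to 60836346) spanned both. Further into the gene, control peaks of 8999 and 7504 bp likewise lay under 1 Eed cKO peak of 24.7 kb, starting 15.6 kb from the 5′ end. Unc5b was thus covered by fewer, longer peaks in Eed cKO. Unc5c (6.31 kb peak, chromosome 3, 141461832 to 141468138) and Unc5d (4.04 kb, chromosome 8, 29216612 to 29220648) were marked in control alone. The nearest Eed cKO peaks lay 3467 kb and 1442 kb from these genes. Unc5a was marked in Eed cKO alone, by a 6.51 kb peak over its 5′ end on chromosome 13 (54945095 to 54951605), and the nearest control peak lay 194 kb away.

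Netrin-G genes differed from each other. Ntng2, whose product is a synaptic adhesion ligand, had peaks at both ends in both lists, and the 5′ one on chromosome 2 was 12.0 kb wide in control against 10.4 kb in Eed cKO. Another peak, inside the gene, measured 3.60 kb and 9.83 kb. Ntng1 had none in either list, and the nearest lay 1361 kb away.

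Among secreted class 3 semaphorins, which signal through neuropilins and plexins, control marked 2 of 7 and Eed cKO 1. Sema3b had a 6.20 kb control peak on chromosome 9 (107599521 to 107605716) contained in an Eed cKO peak of 13.0 kb (107599386 to 107612375). The Eed cKO peak also reached the far end of the gene and Gnai2, and both peaks were shared with Lsmem2. Sema3f, on the same chromosome, was marked in control alone by a 5.76 kb peak shared with Gnat1. That peak lay 1536 bp outside the gene's lower-coordinate end, and a second control peak of 3.56 kb lay inside the gene. Sema3a, Sema3c, Sema3d and Sema3e, spread over 5347 kb of chromosome 5, had no peak in either list, and the nearest one lay 1499 kb from Sema3c in control.

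Of 13 membrane-bound semaphorin genes, control marked 5 and Eed cKO 3. Sema6b, a plexin-A ligand, had the widest peaks at its 5′ end on chromosome 17, a control peak of 16.3 kb (56133591 to 56149847) and an Eed cKO peak of 15.1 kb (56134915 to 56150012). At its 3′ end, control peaks of 3.19 and 1.38 kb lay under 1 Eed cKO peak of 8.89 kb. Sema6b shared peaks with Plin5 and Lrg1 in both lists. Sema7a, a lipid-anchored semaphorin that binds plexin-C1 and integrins, had nearly identical peaks of 12.7 and 12.9 kb on chromosome 9 (57934962 to 57947695 in control). These covered each other to 96.6% and 95.2%. At Sema5b, a 7.96 kb control peak over the 5′ end on chromosome 16 was met by a 2.90 kb Eed cKO peak that covered 34.5% of it. A 3.20 kb control peak inside Sema5b met no Eed cKO peak. Sema4g (3.22 kb) and Sema6c (2.86 kb, at its 3′ end) were marked in control alone, and theirs were the narrowest, by the widest peak at the gene, of any control-marked member.

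Plexins, the semaphorin receptors, were marked in 4 of 9 cases over both lists. Plxna4 had a 6.63 kb control peak on chromosome 6 (32584316 to 32590948) inside a 9.96 kb Eed cKO peak. Plxnd1, a receptor of Sema3e in vessels, had a 7.37 kb control peak on chromosome 6 (115989015 to 115996383) inside a 12.2 kb Eed cKO peak. Both were wholly covered in Eed cKO and wider there. Plxnc1, the receptor of Sema7a, was marked in control alone by a 7.78 kb peak over its 5′ end on chromosome 10 (94940406 to 94948180), with the nearest Eed cKO peak 165 kb away. Plxna1 was marked in Eed cKO alone by a 5.96 kb peak on chromosome 6 (89359158 to 89365119) shared with Gm40415, and the nearest control peak lay 485 kb away. All 3 class B plexin genes were unmarked.

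Efna1, Efna3 and Efna4 lie within 66.3 kb of chromosome 3. Efna3, in the middle, was marked in both lists, by a 6.10 kb control peak (89316232 to 89322333) and by 2 Eed cKO peaks of 5.98 and 2.52 kb that covered 83.2% of it. Efna1, an EphA2 ligand abundant in epithelia, had a 5.18 kb Eed cKO peak (89281498 to 89286678) that began 547 bp before its 5′ end. Efna4 lay wholly under a 14.9 kb Eed cKO peak (89328341 to 89343227) shared with Adam15. Neither had a control peak, and the nearest lay 35.3 kb from Efna1 and 11.1 kb from Efna4. Elsewhere, Efna2 was marked in control alone (5.90 kb, chromosome 10, shared with Fam174c), and Efnb3, a transmembrane ephrin, in Eed cKO alone (4.21 kb, chromosome 11, shared with Wrap53). The peaks nearest to unmarked Efna5 and Efnb2 lay 1323 kb and 93.6 kb away.

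Eph receptor genes were marked in 6 of 14 cases over both lists. Epha8 had peaks of 11.3 and 11.2 kb over its 5′ end on chromosome 4 (136949833 to 136961172 in control) that covered each other to 94.7% and 95.8%. Ephb2, 93.1 kb away on the same chromosome, had a 9.41 kb control peak inside its 5′ part that no Eed cKO peak met. A second control peak of 2.37 kb, just before its 5′ end, was overlapped by a 3.03 kb Eed cKO peak. Ephb2 therefore counts as marked in both lists, although 17.6% of its control peak bases were covered. Further inside Ephb2, control peaks of 5.95 and 4.86 kb met no Eed cKO peak. Ephb1 stood at the other extreme, with a 4.34 kb control peak on chromosome 9 (102351120 to 102355461) inside a 12.0 kb Eed cKO peak (102345400 to 102357446).

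The remaining marked Eph genes had a peak at a gene end in 1 list. Epha3 was marked in control alone (5.85 kb, chromosome 16, 63860929 to 63866777), and the nearest Eed cKO peak lay 5136 kb away. Ephb4, a receptor of ephrin-B2, was marked in Eed cKO alone by a 2.98 kb peak that lay 880 bp beyond its 3′ end and was shared with Zan. Epha10, a kinase-inactive Eph, had a 3.06 kb Eed cKO peak 1954 bp inside its 5′ end, and a 2.24 kb control peak lay under it, 2801 bp inside. Eed cKO peaks of 5.44 and 1.76 kb lay further inside Epha10 and met no control peak. Epha2, the main EphA receptor of keratinocytes, was unmarked, with its nearest peaks 17.0 kb away in control and 17.9 kb away in Eed cKO.

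At the Slit genes, the call turned on the window. At Slit1, a secreted Robo ligand, a 7.17 kb Eed cKO peak crossed the higher-coordinate end on chromosome 19 (41741195 to 41748367). A 5.47 kb control peak overlapped it but stopped 2004 bp inside the gene, just outside the window, so Slit1 counted as marked in Eed cKO alone. A 2.53 kb control peak further inside Slit1 met no Eed cKO peak. Slit2 had a 5.39 kb control peak 2394 bp inside the 5′ end of its span, which lay 530 bp from its listed start, and its nearest Eed cKO peak lay 4165 kb away. Slit3 had 5 control peaks of 1.40 to 7.29 kb inside the gene, at least 297 kb from its 5′ end, of which 1 was met in Eed cKO, by a 5.84 kb peak. With the whole gene span counted, control marked all 3 Slit genes and Eed cKO 2.

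Among Robo receptors, only Robo3, which gates midline crossing of commissural axons, was marked. Its control peak of 6.72 kb (chromosome 9, 37429273 to 37435995) and Eed cKO peak of 6.51 kb covered each other to 95.2% and 98.2%. The adjacent Robo4, a Robo of vessels, was unmarked, with the nearest peak 15.3 kb away. For Robo1 and Robo2, the main Slit receptors of axons, it lay 3365 kb and 965 kb away.

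**Figure D3:**
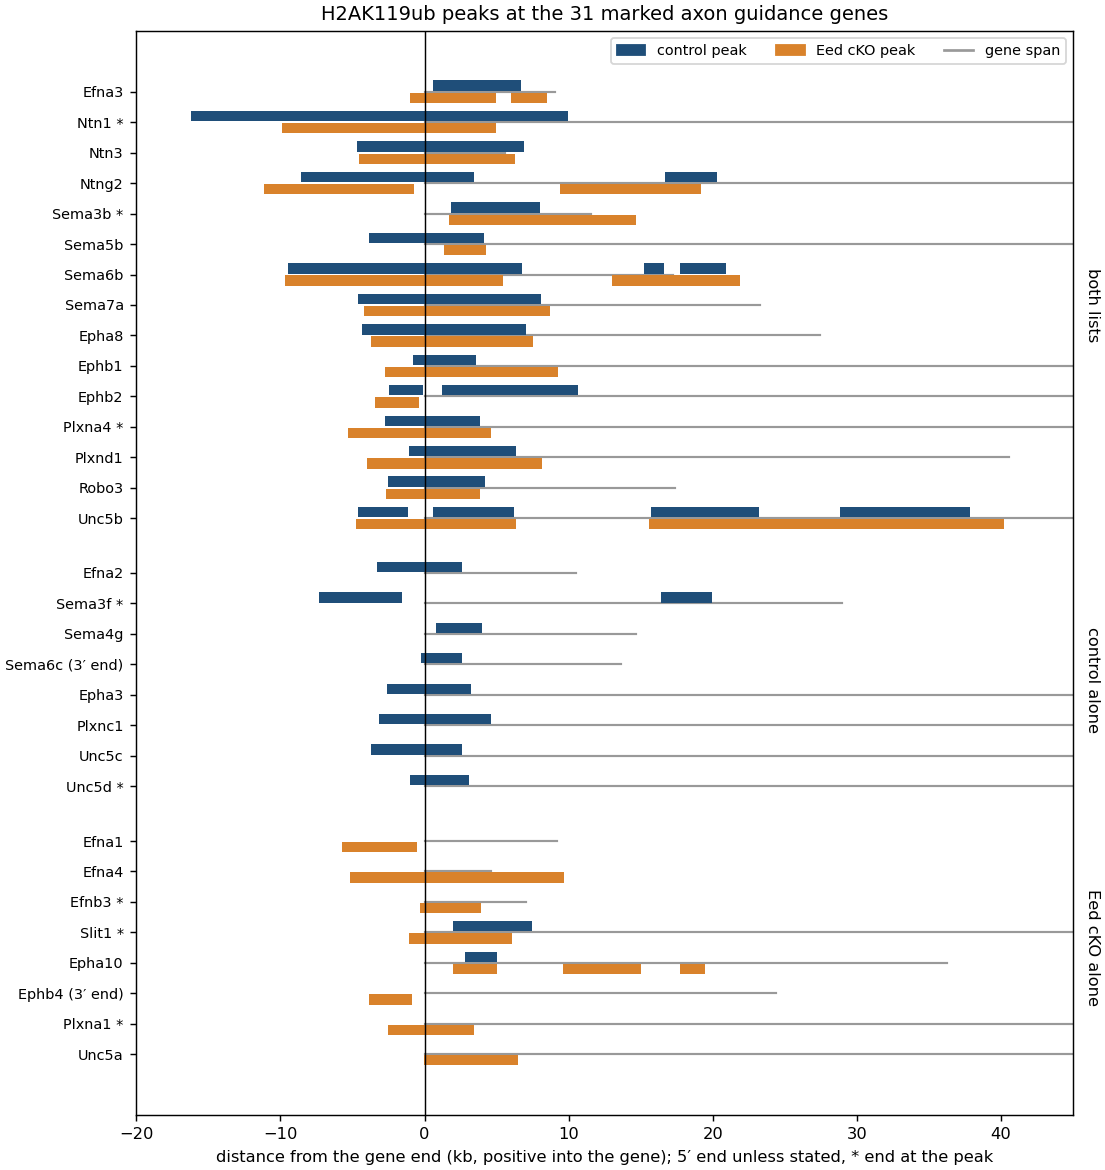
H2AK119ub peaks at the 31 axon guidance genes marked in at least 1 list (y axis), drawn by distance from the gene end (x axis, kb, positive into the gene), with control peaks in blue, Eed cKO peaks in orange and the gene span as a grey line. Zero is the 5′ end, the 3′ end where written, and the end at the peak for genes with an asterisk; what lies outside the plotted range is left out. Peaks of the 15 genes marked in both lists overlap at least in part, while Slit1 and Epha10 carry a control peak just inside the gene.

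At the 15 members marked in both lists, peak widths were similar at the median and spread widely around it. The widest Eed cKO peak was 0.980 times as wide as the widest control peak at the median member, from 0.322 at Ephb2 to 2.77 at Ephb1. Over all 1249 genes marked in both lists this median was 0.992. Eed cKO peaks covered a median of 94.7% of the control peak bases at the members and 85.8% over all genes marked in both lists. The wider peak was the Eed cKO one at 2 of 8 ligand genes (Sema3b and Sema7a) and at 4 of 7 receptor genes (Ephb1, Plxna4, Plxnd1 and Unc5b). Over all genes it was the Eed cKO one in 48.5% of cases.

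**Figure D4:**
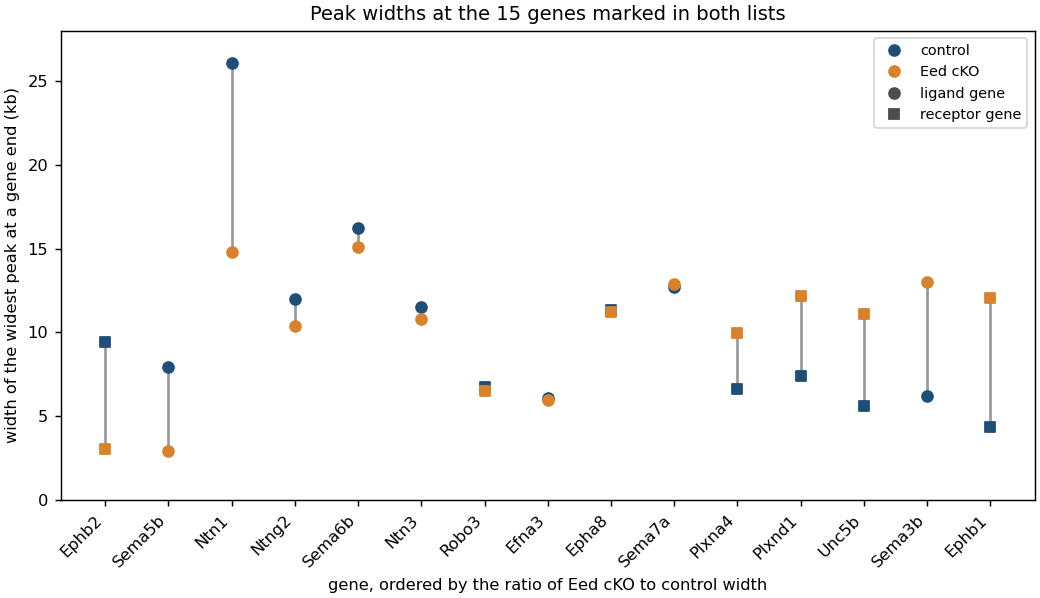
Width of the widest H2AK119ub peak at a gene end (y axis, kb) at the 15 axon guidance genes marked in both lists (x axis, ordered by the ratio of Eed cKO to control width), in control (blue) and Eed cKO (orange), with circles for ligand and squares for receptor genes. Widths differ by less than 1 kb at Ntn3, Robo3, Efna3, Epha8 and Sema7a, while Ntn1 is at 26.1 and 14.8 kb and Ephb1 at 4.34 and 12.0 kb.

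Members marked in control had a median widest peak of 6.63 kb (n = 23), against 5.90 kb over all control-marked genes. In Eed cKO the medians were 9.96 kb (n = 23) and 6.70 kb. The 8 members marked in control alone had peaks of 2.86 to 7.78 kb with a median of 5.80 kb, and the 15 marked in both had a median of 7.96 kb. Over all genes these medians stood in the same order, at 4.83 kb and 7.36 kb. No Eed cKO peak overlapped the gene-end peaks of the 8 members marked in control alone. Of the 8 marked in Eed cKO alone, 2 (Slit1 and Epha10) had a control peak under the Eed cKO peak, and 6 (Efna1, Efna4, Efnb3, Ephb4, Plxna1 and Unc5a) had none. Over all genes marked in control alone (1301) or in Eed cKO alone (371), the median share of peak bases covered by the other list was 0.0%. Lack of overlap is thus usual at such genes and is not read as particular to the members.

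Peaks lay mostly at 5′ ends. Of the 18 control-marked members of known strand, 14 had a peak at the 5′ end alone, 3 at both ends (Ntn3, Ntng2 and Sema6b) and 1 at the 3′ end (Sema6c). In Eed cKO the counts were 11, 5 and 1 (Ephb4) of 17. The same split over all marked genes is not given here, so it is not read as particular to the members. With the 5′ end as the only window, control marked 28.8% of the 59 members of known strand and Eed cKO 27.1%. The shares of all genes of known strand were 9.08% and 5.48%. Nearest to the window's limit of 2000 bp, control peaks at Sema3f (1536 bp) and Sema3b (1847 bp) lay inside it and those at Slit1 (2004 bp), Slit2 (2394 bp) and Epha10 (2801 bp) outside. Of the Eed cKO peaks, Epha10 (1954 bp) lay just inside and Ntn5 (3690 bp) was the next outside. The ends of the 38 unmarked members lay a median of 231 kb from the nearest peak of either list, over 1 Mb away at 12 genes and within 20 kb at 8. The same distance over all unmarked genes is not given here, so these values describe the members only. Besides those named above, the unmarked members were Sema3g, Sema4a, Sema4b, Sema4c, Sema4d, Sema4f, Sema5a, Sema6a, Sema6d, Epha1, Epha4, Epha5, Epha6, Epha7, Ephb3, Ephb6 and Plxna2, and the class B plexins. Epha5 lay farthest from any peak (4466 kb) and Ntn5 at 3432 bp, Epha1 at 4911 bp and Plxnb2 at 6596 bp were near to one.

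Marked shares were also read by gene length. Among the 19 members with a span over 200 kb, such as Robo1, Robo2, Dcc and Epha5, control marked 5 (26.3%) and Eed cKO 2 (10.5%). Over all protein-coding genes of that size the shares were 23.6% and 8.09%. Among the 35 members with a span of up to 50 kb, control marked 12 (34.3%) and Eed cKO 14 (40.0%), against 10.5% and 7.50% of all genes of that size. In between, 6 and 7 of 15 members were marked (40.0% and 46.7%), against 13.6% and 6.80%. The 5 marked long members were Ephb1, Plxna4, Epha3, Unc5c and Unc5d, and the first 2 were marked in both lists. The difference between length classes was not tested.

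With the gene span and 2000 bp on both sides as the window, control marked 27 of 69 members (39.1%) and Eed cKO 24 (34.8%), against 13.7% and 8.83% of all genes. Peaks inside the span, away from both ends, numbered 16 at 9 members in control and 5 at 4 members in Eed cKO. Of the marked members, 5 in control and 7 in Eed cKO lay at a peak that was also at another protein-coding gene. No peak was shared between members. Neither these counts nor those of peaks inside the span are set against all genes here, so they describe the members only.

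Other genes of the pathway included 83 co-receptors, other ligands, intracellular effectors and further genes found in the gene table. Control marked 24 of these (28.9%) and Eed cKO 10 (12.0%), with 8 in both. Those shares compare with 11.7% and 7.40% of all genes. Of the 24 marked in control, 8 were thus also marked in Eed cKO, a lower share than the 49.0% of all control-marked genes. Nrp2, the neuropilin that binds Sema3f, had a control peak of 12.1 kb and an Eed cKO peak of 6.34 kb. Nrp1, the other neuropilin, had a 2.79 kb peak in control alone. Lrrc4, a netrin-G receptor, was marked in both lists (3.98 and 4.84 kb), and Flrt1, of a family that binds Unc5, in Eed cKO alone (11.0 kb). Of 53 intracellular effectors and further genes, control marked 16 (30.2%) and Eed cKO 5 (9.43%, near the 7.40% of all genes). All 5 were in both lists: Dpysl4 (at a peak shared with Jakmip3), Rnd1, Trim9, Trim67 and Gfra1. Trim9 and Trim67 encode ubiquitin ligases that bind Dcc, Rnd1 a small GTPase that binds plexins, and Gfra1 a lipid-anchored surface co-receptor of Ret. Dpysl2, Dpysl3 and Dpysl5, phosphoproteins of semaphorin signalling, were marked in control alone.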

How the data were processed

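Positions of H2AK119ub peaks were analysed for control and Eed cKO, 1 list each as deposited by the authors, with chromosome, start and end and no score, per the file headers. The submitters' processing notes list the mm10 build, Bowtie2 2.3.3.1 and SAMtools 1.9. Sources used here do not give the caller, its cutoff, whether inputs were subtracted or how the 2 libraries of a genotype were joined. Not analysed here were the inputs and the library of the Ring1a/b 2KO mice. Starts were read as counted from 0 and are printed from 1.

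Genes came from RefSeq (GRCm38.p6, chromosomes 1 to 19, X and Y). A peak had to overlap the window by at least 1 bp. Strand and promoters came from RefSeq promoter entries. The members and lists were chosen with earlier results of these data known. All members are accounted for, and the 31 marked in either list are described by their peaks, the others by name, count or distance. Promoters printed follow the rule given beside them. Alternatives were other windows, the 5′ end alone, stricter or trimmed lists, another overlap, merged peaks and autosomes. Functions were tested on simulated peaks over 21883 genes, with 100% of planted genes found. Each simulated peak was placed to meet the window of a gene end, so this checks the code only. Software was Python 3.11.15, numpy 2.4.6, pandas 2.3.3 and statsmodels 0.14.6.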

Additional observations from a re-analysis of the deposited data

How the results depend on the processing

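No paired analysis was possible because each genotype has 1 peak list with no column per library, and for the same reason no replicate could be left out. Counting each peak at a member's end once, in place of each gene, gave 28 in control and 26 in Eed cKO, against 23 genes in each. With windows of 1000 or 5000 bp, the gene span, an overlap of 500 bp, merged peaks (within 1000 bp), autosomes alone and a control list trimmed to its widest peaks, every count of members stayed within 1.5 times the value reported. With the 5′ end alone, over the 59 members of known strand, control alone marked 5 and Eed cKO alone 4 genes, in place of 8 and 8. Within 2000 bp of any listed start, a setting chosen after seeing the data, Eed cKO alone marked 4. With the wider peaks of each list it marked 5. With ephrins and Ephs left out, receptor genes marked were 7 in control, 6 in Eed cKO and 4 in both, by the removal of genes. Shares then stood at 34.5% of ligands and 38.9% of receptors in control and at 27.6% and 33.3% in Eed cKO. The share of control-marked members also marked in Eed cKO ran from 56.5% (13 of 23, with 50% of the control peak covered) to 71.4% (trimmed control list), and was 66.7% for the 18 with unshared peaks, also chosen after seeing the data. Of 46 calls of a gene in a list, 36 held under every window and list they were run with. Of these, 29 were run with all of them and 7, at genes without a known strand, were not run with the 5′ end alone or the listed starts. Sema3b, Sema3f, Sema5b, Sema6c, Sema4g, Epha10, Ephb2, Ephb4, Efnb3 and Unc5d each lost 1 under at least 1 of them. In control, ligands and receptors stood at 27.0% and 34.4% with the 1000 bp window and at 40.5% and 37.5% with the 5000 bp window, so their order turned. Depth is unknown, so an unmarked gene is one without a called peak, not one without the mark.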
